A study of Mus musculus with 8 samples.

Results

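Glycolysis and the response to low oxygen were followed through 33 genes in macrophages sorted out of mouse breast tumours. The 33 were listed by name, and each was read from the probe with the highest mean processed signal over 8 arrays among all probes whose accession RefSeq (GRCm38.p6) assigns to that gene. All 33 of the 32665 genes and unnamed transcripts on the array had a probe, 50 probes in all. All 33 were well above background on all 8 arrays, so none was lost to the filter on dim probes. RefSeq now calls Ero1l by the symbol Ero1a.

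Glycolysis splits glucose into pyruvate and yields ATP without oxygen. Cells short of oxygen stabilise the hypoxia-inducible factors, HIF-1 alpha (Hif1a) and HIF-2 alpha (Epas1), which otherwise are hydroxylated by the EGLN oxygen sensors and degraded. The factors bind a short DNA core and raise transcription of glucose transporters, glycolytic enzymes, lactate export and genes of survival and matrix formation. Macrophages in poorly perfused tumour regions are known to run this programme, and neutrophils and many carcinoma cells are known for high glycolysis too.

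The tested samples were macrophages from tumours grown in C57BL/6 hosts without ATF3, a transcription factor induced by cell stress (KO, 4 samples), and the others came from wild-type C57BL/6 hosts (WT, 4 samples). In both, the tumours came from PyMT breast cancer cells, mouse cells named for the middle T oncogene of polyoma virus, put into the mammary gland about 21 days earlier, and cells positive for F4/80 and CD45 were sorted. The genotype is that of the host only, the allele is not stated, and the labels do not say whether samples were single mice or pools. The p-values therefore cover no more than the spread among the samples at hand, which may be technical. Samples are numbered 1 to 4 in each genotype; KO and WT samples numbered 1 and 2 lay on one slide and those numbered 3 and 4 on the other.

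Levels are given as log2 of the processed signal relative to each array's 75th percentile, which lay between 638 and 926 intensity units on the KO arrays and between 619 and 788 on the WT arrays. The number of arrays limits the precision. Atf3 itself measured no less in KO than in WT, at 5.05 ± 0.31 in KO and 4.80 ± 0.21 in WT (SD, n = 4 each; two-sided exact permutation p = 0.314, and 0.0286 on unscaled signal, the smallest p that 4 against 4 can give). Without KO sample 1 the scaled difference was 0.10, against 0.25 with it. Whether the deletion removes the probe's target is unknown, so the probe does not check the labels, and KO and WT below mean the libraries labelled KO and WT. The sort marker gene Adgre1, which encodes F4/80, was well above background on all arrays, at 4.32, 3.80, 4.68 and 3.47 in KO samples 1 to 4 and 4.45, 4.08, 4.71 and 3.33 in WT samples 1 to 4. Ptprc, which encodes CD45, differed by −0.10. All 7 markers of tumour epithelial cells were also well above background on all 8 arrays, among them Epcam at −0.05 to 3.41 in KO and −0.08 to 3.18 in WT. In sorted bulk RNA, fewer cells of a type and less RNA per cell cannot be told apart.

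The HIF factors bind the core ACGTG, and 4 promoters are shown because they belong to members with contrasting behaviour across these samples: the steady enzymes Ldha and Pgk1, and Car9 and Egln3, which varied widely between samples. Each is the 250 bases before the RefSeq start (GRCm38.p6), 5′ to 3′ on the gene's strand, with ACGTG or its reverse complement CACGT in capitals. They lie at chr7:46845554-46845803 (plus strand) for Ldha, chrX:106186850-106187099 (plus strand) for Pgk1, chr4:43506776-43507025 (plus strand) for Car9 and chr12:54203875-54204124 (minus strand) for Egln3.
Ldha: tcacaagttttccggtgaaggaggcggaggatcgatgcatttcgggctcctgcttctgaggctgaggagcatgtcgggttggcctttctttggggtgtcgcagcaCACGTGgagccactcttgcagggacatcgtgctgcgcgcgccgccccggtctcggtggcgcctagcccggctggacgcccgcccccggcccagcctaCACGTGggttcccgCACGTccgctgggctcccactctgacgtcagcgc
Pgk1: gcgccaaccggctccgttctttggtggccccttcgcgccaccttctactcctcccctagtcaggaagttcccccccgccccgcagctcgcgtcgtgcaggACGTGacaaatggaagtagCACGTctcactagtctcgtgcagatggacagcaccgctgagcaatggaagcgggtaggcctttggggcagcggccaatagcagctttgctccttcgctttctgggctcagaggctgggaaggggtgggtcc
Car9: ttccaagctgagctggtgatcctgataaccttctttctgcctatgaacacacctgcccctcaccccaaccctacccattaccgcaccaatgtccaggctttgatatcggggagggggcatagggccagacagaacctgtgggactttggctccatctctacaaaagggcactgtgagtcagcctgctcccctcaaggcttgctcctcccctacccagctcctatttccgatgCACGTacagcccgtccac
Egln3: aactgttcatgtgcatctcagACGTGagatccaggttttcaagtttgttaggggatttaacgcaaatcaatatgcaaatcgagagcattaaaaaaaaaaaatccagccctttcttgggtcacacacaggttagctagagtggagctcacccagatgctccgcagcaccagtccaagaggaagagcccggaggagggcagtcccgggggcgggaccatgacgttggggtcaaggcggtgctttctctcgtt
Ldha held 3 separate stretches, of which 2 read CACGTG and so match on both strands, ending 140, 43 and 30 bases before the start. RefSeq gives a second Ldha window, which held 0. Pgk1 held 2, ending 146 and 127 bases before it. Car9 and Egln3 held 1 each, ending 14 and 225 bases before it. RefSeq promoters were at hand for 30 of the 33 members, and 18 of these (60%) held the core on either strand in at least 1 window of this length, against 18.5% of 27025 genes. The list was assembled by name as glycolysis and hypoxia response genes, which include known targets of the factors, so this share is a description of the list. A match is not a binding site.

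No member differed between the genotypes by the test. With limma's moderated test and Benjamini-Hochberg adjustment over 20870 genes, 0 of 33 members were called (0% of all genes tested), and the adjusted p was 0.9999 for each of the 33. At an unadjusted p under 0.05 there were 0 members, against 3.33% of all genes. In 0 members did the KO and WT samples separate without overlap, against 2.12% of all genes (1.36% with KO lower and 0.757% with KO higher). The log2 differences, KO minus WT, ran from −0.35 for Epas1 to 0.21 for Aldoc, and Epas1 in KO was at 0.786 of its WT level. The 95% interval of the difference lay within a 2-fold change either way for 27 of 33 members, against 51.3% of all genes.

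More members lay below 0 than above it, by small amounts, and the direction depended on the background correction. The difference was negative for 25 of 33 members, with a median of −0.078, against 51.4% of all genes with a median of −0.0086. With normexp background correction the count was 9 of 33 and the median 0.051, while over all genes 61.5% were below 0, with a median of −0.14. With 18 very high local backgrounds on WT array 1 replaced, the members' count was 28 and their median −0.097. Over all genes that fit gave 57.3% and −0.037. The replacement was an alternative chosen after seeing the data. Within the slide of numbers 1 and 2 the members' median was −0.11, and within the slide of numbers 3 and 4 it was −0.061. Without KO sample 3 the count was 17 and the median −0.0079, and without KO sample 1 they were 30 and −0.15. Without WT sample 1 and without KO sample 2 the medians were −0.020 and −0.030. Shares of all genes are not given here for the fits with a sample left out. Between same-numbered samples, 6 members were lower in KO in 4 of 4 pairs (9.67% of all genes were) and 0 were higher in 4 of 4 (7.39%). The 6 were Pfkfb3, Pgam1, Eno1, Epas1, P4ha1 and Ndrg1, named after their values were seen.

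**Figure D1:**
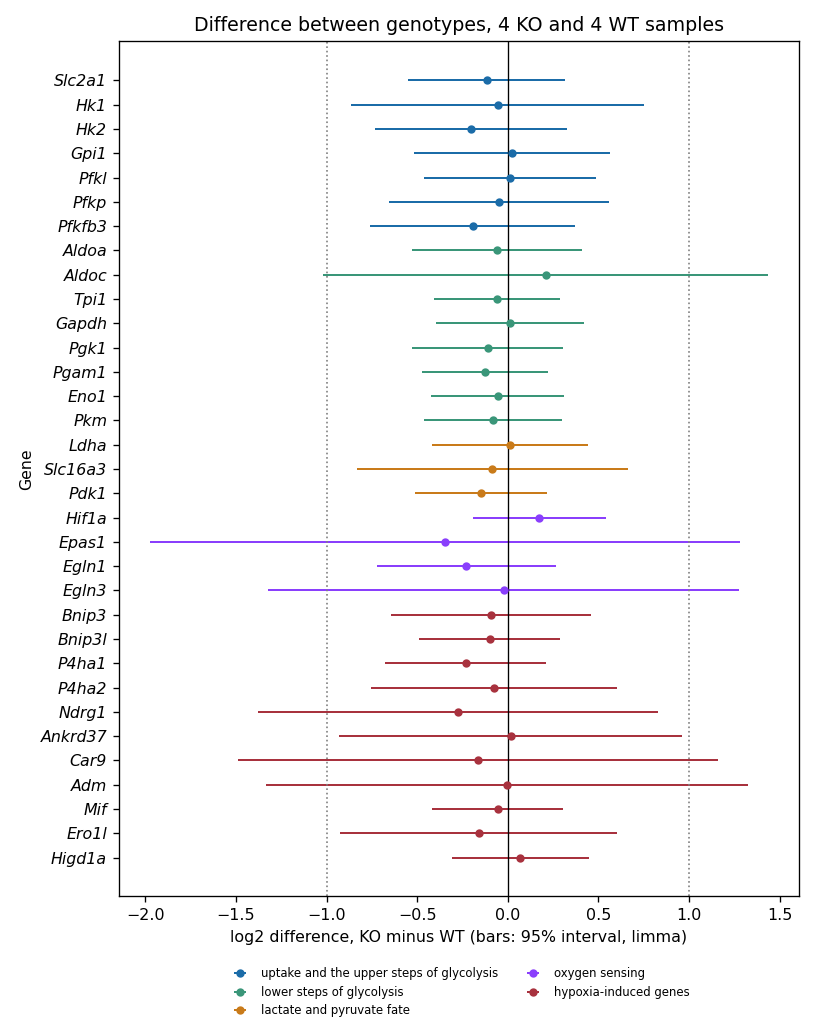
Log2 difference, KO minus WT, for each of the 33 genes (points), coloured by role. Bars are 95% intervals from limma without the sample number in the fit. Dotted lines mark a 2-fold change either way. All 33 intervals cross 0, and 27 lie between the dotted lines.

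Among the 7 genes of glucose uptake and the upper steps, 0 were called. Slc2a1 encodes GLUT1, the basal glucose transporter. It measured 5.57, 4.96, 5.10 and 5.18 in KO samples 1 to 4, against 5.41, 5.36, 5.09 and 5.42 in WT samples 1 to 4, a difference of −0.12 with a standard error of 0.19. The groups overlapped, and KO sample 1 held the highest value. Hk2, the inducible hexokinase that commits glucose to the cell, measured 3.27, 2.41, 3.09 and 2.54 in KO samples and 3.02, 3.03, 3.13 and 2.92 in WT samples, a difference of −0.20 (95% interval −0.73 to 0.33). The WT samples lay within a narrow band, at an SD of 0.09, and KO samples 2 and 4 lay below it. Pfkfb3 makes the activator of phosphofructokinase. It measured 6.04, 5.37, 5.73 and 5.11 in KO samples and 6.08, 5.66, 5.76 and 5.52 in WT samples, a difference of −0.19 (−0.76 to 0.37). KO was the lower in each numbered pair, with differences of −0.039, −0.29, −0.030 and −0.41. The SD within each genotype was 0.41 in KO and 0.24 in WT. Sample number took 82.5% of the Pfkfb3 sum of squares, a spread that the interval does not set aside. The 2 other Pfkfb3 probes, of much lower signal, gave −0.42 and −0.16, with standard errors of 0.42 and 0.34.

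The other upper-step genes differed by −0.056 (Hk1, the housekeeping hexokinase), 0.021 (Gpi1, glucose phosphate isomerase), 0.013 (Pfkl) and −0.047 (Pfkp, like Pfkl a subunit of phosphofructokinase). All 7 intervals of the upper steps lay within a 2-fold change. Of the 3 other Hk1 probes above background on at least 4 arrays, 1 gave −0.073 and the others 0.078 and 0.28.

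The enzymes of the lower steps varied least of the 5 role groups. For the 8 genes the SD over all 8 samples had a median of 0.16, against 0.47 over all genes tested. Pgam1, the phosphoglycerate mutase, measured 5.73, 5.45, 5.53 and 5.44 in KO samples and 5.74, 5.73, 5.61 and 5.55 in WT samples, a difference of −0.12 (−0.47 to 0.22). KO was lower in each pair, with differences of −0.017, −0.28, −0.080 and −0.11, and the groups overlapped. Pkm, the pyruvate kinase, measured 5.73, 5.29, 5.36 and 5.43 in KO samples and 5.68, 5.55, 5.41 and 5.49 in WT samples, a difference of −0.079 (−0.46 to 0.30). Here too the groups overlapped, with KO sample 1 the highest and KO sample 2 the lowest of the 8.

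Of the remaining lower-step enzymes, Aldoa (aldolase A) differed by −0.057, Tpi1 (triose phosphate isomerase) by −0.060, Gapdh by 0.013, Pgk1 (phosphoglycerate kinase) by −0.11 and Eno1 (enolase 1) by −0.056. Gapdh, Eno1 and other enzymes here have near-identical pseudogene copies in the mouse, whose transcripts a probe may not tell apart. Aldoc, the aldolase isoform best known from brain, stood out from the rest by its spread. It measured 3.83, 4.75, 3.10 and 5.08 in KO samples and 3.90, 4.39, 2.96 and 4.67 in WT samples, a difference of 0.21 with an interval of −1.02 to 1.44. In both genotypes the samples numbered 4 and 2 were high and those numbered 3 were low.

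For the fate of pyruvate, Ldha, which encodes the A subunit of lactate dehydrogenase and whose promoter shown above held 3 core stretches, measured 5.33, 4.95, 4.97 and 5.04 in KO samples and 5.29, 5.23, 4.96 and 4.78 in WT samples. The difference was 0.011 (−0.42 to 0.44), and a second probe gave the other sign, at −0.029. Pdk1, a kinase that inhibits pyruvate dehydrogenase, measured 3.34, 3.46, 3.40 and 3.49 in KO samples and 3.53, 3.75, 3.34 and 3.67 in WT samples. The difference was −0.15 (−0.51 to 0.22). KO was lower in 3 of 4 pairs, and WT sample 3 was the lowest of the 8. Slc16a3 encodes MCT4, which exports lactate. It measured 3.83, 2.98, 3.47 and 2.63 in KO samples and 3.85, 3.18, 3.38 and 2.84 in WT samples, a difference of −0.084 (−0.83 to 0.66), with the same order of numbers in both genotypes.

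Among the oxygen sensors and factors, Hif1a was the member with the largest positive difference after Aldoc and the one whose values followed the sample number least. It measured 3.48, 3.34, 3.35 and 3.24 in KO samples and 3.04, 3.03, 3.25 and 3.38 in WT samples, 0.17 higher in KO (−0.19 to 0.54). KO was higher in 3 of 4 pairs, and WT samples 3 and 4 lay within the range of the KO samples. Within the slide of numbers 3 and 4 the difference was −0.027. HIF-1 alpha is set mainly by protein stability, which arrays do not measure. Epas1 measured 0.91, 1.56, 0.09 and 2.68 in KO samples and 1.37, 1.65, 0.43 and 3.18 in WT samples. Its difference of −0.35 (−1.98 to 1.28) was small beside the spread within each genotype, at SDs of 1.09 in KO and 1.14 in WT. Most of that spread lay between sample numbers, which took 96.2% of the Epas1 sum of squares, and this interval does not set it aside. KO was lower in each pair, with differences of −0.46, −0.097, −0.33 and −0.50, and a second probe of much lower signal gave −0.73. Without WT sample 4 the Epas1 difference was 0.16, with KO sample 4, the highest KO value, still in the fit. With the replicate number as a block in the fit, Epas1 was the only member with an unadjusted p under 0.05 (3.03% of members, against 7.55% of all genes), at a limma adjusted p of 0.66.

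Epas1 is also expressed by endothelial cells, whose markers had a median difference of −0.63. Below 0 were 7 of 7 tested markers, against 51.4% of all genes. By limma 1 of them had an unadjusted p under 0.05 (3.33% of all genes did) and none was called. Tek was not tested. The mean level of these markers was −2.60, −2.08, −2.33 and −1.29 in KO samples 1 to 4, against −1.34, −0.90, −2.37 and −0.44 in WT samples 1 to 4, and their summed signal ran from 1.91 to 3.98 in KO and from 1.90 to 7.44 in WT, in multiples of the 75th percentile. Of the 7, 6 were well above background on all 8 arrays, and their part in the Epas1 values was not tested.

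Egln1, the main oxygen sensor, measured 2.78, 2.03, 2.44 and 2.30 in KO samples and 2.90, 2.55, 2.36 and 2.66 in WT samples, a difference of −0.23 (−0.72 to 0.27). Its second probe, of much lower signal, gave −0.34. By the main probe KO was lower in 3 of 4 pairs. Egln3, a sensor that is itself induced by hypoxia, measured 2.30, 2.30, 1.19 and 3.05 in KO samples and 2.68, 2.37, 0.81 and 3.07 in WT samples. The difference was −0.023 (−1.32 to 1.28). Both samples numbered 3 were low and both numbered 4 high, whatever the genotype.

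The hypoxia-induced genes outside glycolysis also gave 0 calls, with 9 of 11 below 0 and differences from −0.28 to 0.070. P4ha1, a collagen prolyl hydroxylase subunit, had the smallest unadjusted p of the set, 0.261 (limma adjusted p = 0.9999). It measured 2.53, 2.38, 2.67 and 2.14 in KO samples and 2.82, 2.39, 2.87 and 2.57 in WT samples, a difference of −0.23 (−0.68 to 0.21). Its second probe, of lower signal, gave −0.21. By the main probe KO was lower in each pair, with differences of −0.29, −0.013, −0.20 and −0.43. Bnip3, which targets mitochondria for autophagy, measured 4.33, 3.60, 4.29 and 3.78 in KO samples and 4.25, 3.70, 4.20 and 4.23 in WT samples, a difference of −0.094 (−0.65 to 0.46). Samples numbered 2 were the lowest in both genotypes.

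Car9 and Adm varied widely between samples, and the genotypes overlapped. Car9, the cell-surface carbonic anhydrase IX, measured −0.53, 0.23, −0.78 and 0.93 in KO samples and −0.48, 0.47, −0.87 and 1.39 in WT samples, a difference of −0.16 (−1.49 to 1.16). Adm, the vasodilator peptide adrenomedullin, measured 3.71, 3.45, 2.49 and 4.39 in KO samples and 3.25, 3.49, 2.45 and 4.86 in WT samples, with means of 3.51 in both and an interval of −1.33 to 1.32. Ndrg1, a stress-induced gene, measured 3.93, 3.72, 2.78 and 4.29 in KO samples and 4.05, 4.31, 2.79 and 4.70 in WT samples, a difference of −0.28 (−1.38 to 0.83). In these genes the samples numbered 4 were at the top, and those numbered 3 at the bottom, in each genotype.

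The remaining hypoxia-induced genes differed by −0.10 (Bnip3l, a relative of Bnip3), −0.078 (P4ha2, a relative of P4ha1), 0.016 (Ankrd37, a small ankyrin-repeat protein gene), −0.056 (Mif, a cytokine), −0.16 (Ero1l, an endoplasmic reticulum oxidase) and 0.070 (Higd1a, a mitochondrial protein). Of these, Ankrd37 had the widest interval, at −0.93 to 0.96. A second Higd1a probe of much lower signal gave −0.51 with a standard error of 0.59. Across the set, 13 members had 16 further probes above background on at least 4 arrays. Of those probes, 10 gave the sign of the member's main probe and 6 the other, and none had an unadjusted p under 0.05.

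**Figure D2:**
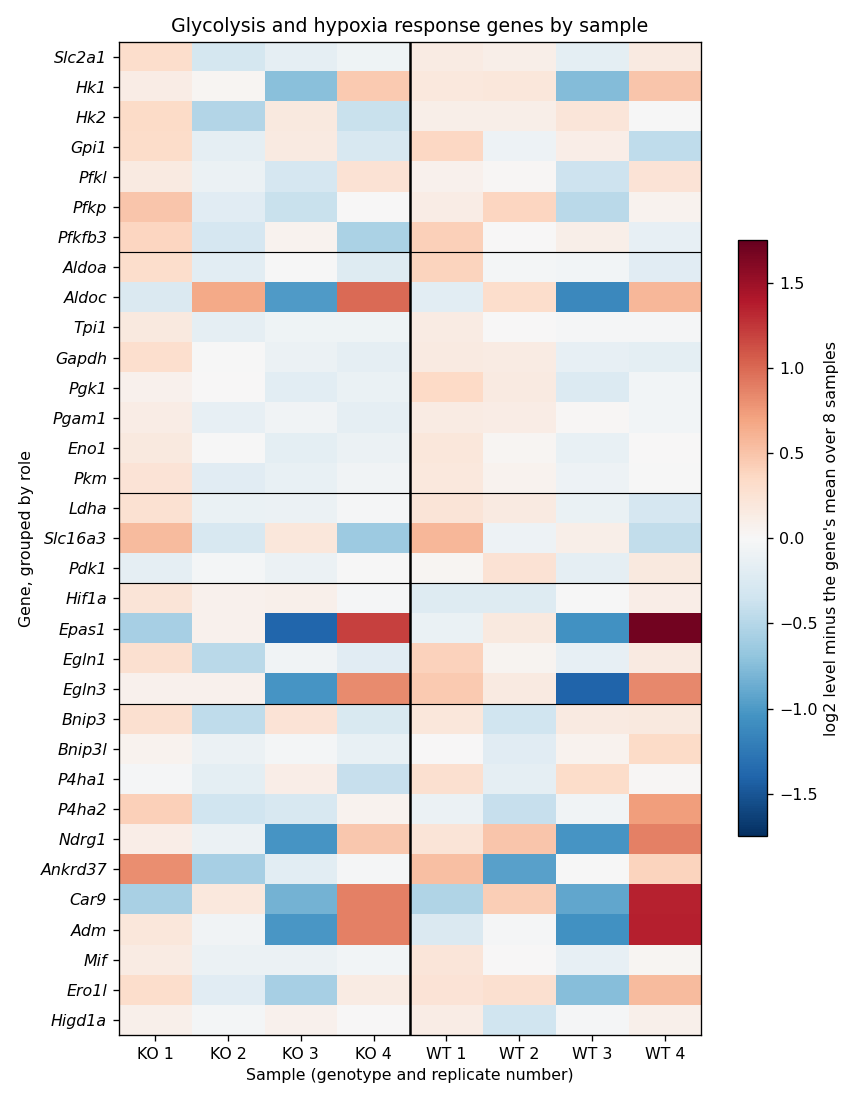
Each cell is the log2 level of a gene (rows, grouped by role) in a sample (columns, KO samples 1 to 4, then WT samples 1 to 4) minus the gene's mean over the 8 samples. The KO and WT columns of one number resemble each other; Epas1, Egln3, Car9 and Adm are high in both samples numbered 4 and low in both numbered 3.

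The sample number, not the genotype, took most of the members' variation. The number accounted for a median of 82.5% of a member's sum of squares over the 8 samples, against 66.3% over all genes tested and 42.9% from its degrees of freedom. Genotype accounted for a median of 3.44% of it, against 4.93% over all genes and 14.3% from its degrees of freedom. The number has more degrees of freedom than genotype, so the 2 shares are not on an equal footing. Of the 20870 genes tested, 17172 were well above background on all 8 arrays, as all 33 members were. The number's share exceeded that of genotype in 32 of 33 members, against 90.0% of all genes, and Hif1a was the exception, with 11.0% for number and 33.5% for genotype. These descriptions were chosen after the values were seen. The labels do not say what samples of one number shared.

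Some members were highest in number 4 and lowest in number 3. In 6 members (Epas1, Egln3, Car9, Adm, Hk1 and Pfkl) both samples numbered 4 were the highest and both numbered 3 the lowest of the 8, which held for 5.01% of all genes tested. By role they were 2 of 7 upper-step genes, 2 of 4 oxygen sensing genes and 2 of 11 hypoxia-induced genes. Relative to the gene's mean over the 8 samples, Epas1 averaged 1.44 in number 4 and −1.22 in number 3, and Car9 averaged 1.11 and −0.87 in those numbers. Ndrg1 and Aldoc came close to the same order, with both samples numbered 3 lowest. In 12 of 33 members (36.4%) both samples numbered 3 were the lowest, against 11.2% of all genes. In 0 were both the highest, against 14.3% of all genes. Numbers 3 and 4 were hybridised on the same slide, and numbers 1 and 2 on the other. Between numbers on different slides, such as 1 and 3, sample number and slide cannot be told apart.

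**Figure D3:**
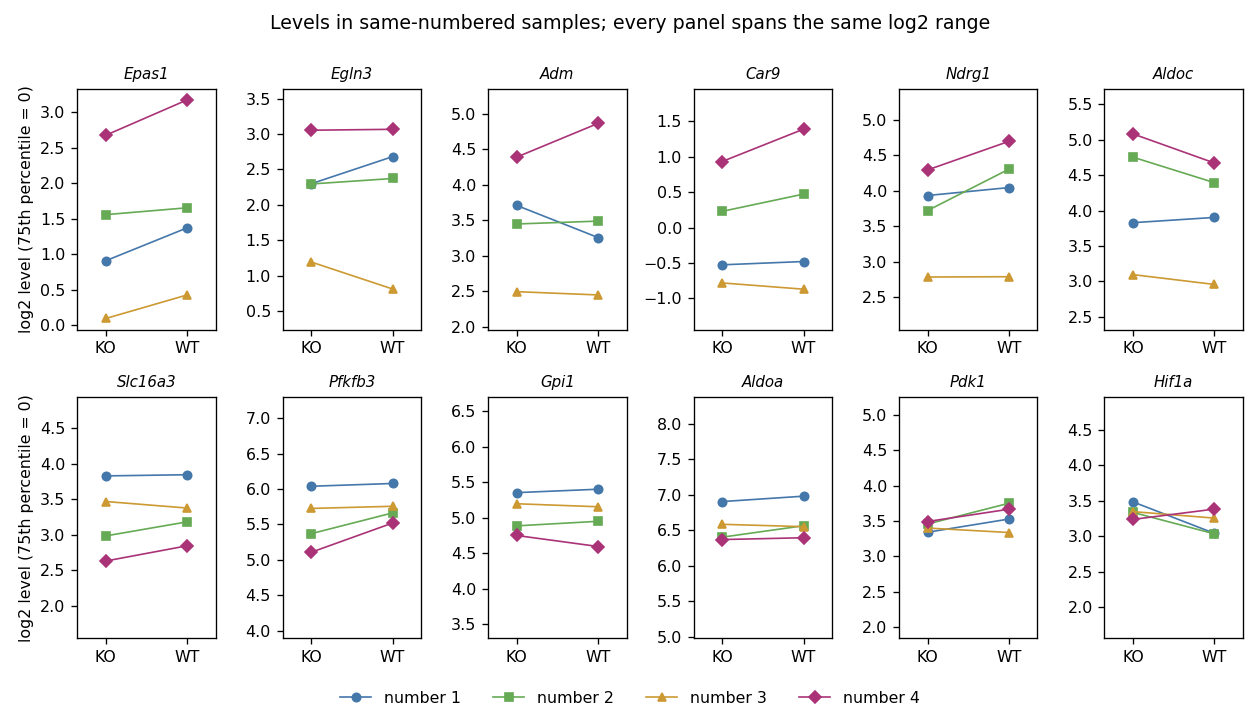
Log2 levels of 12 genes in KO (left) and WT (right) samples, with lines joining samples of the same number. In the upper row number 4 is highest and number 3 lowest for each gene; in the lower row Slc16a3, Pfkfb3, Gpi1 and Aldoa are highest in number 1, and Pdk1 and Hif1a vary little.

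Markers of tumour epithelial cells and fibroblasts followed the same order of numbers. The mean level of the 7 epithelial markers was 1.61, 2.72, 0.45 and 3.50 in KO samples 1 to 4 and 1.23, 2.85, 0.40 and 3.25 in WT samples 1 to 4. Their summed signal ran from 13.2 to 110 in KO and from 12.6 to 105 in WT, in multiples of the 75th percentile. The mean of the 7 fibroblast markers was 1.02, 0.64, −0.53 and 2.24 in KO samples and 0.55, 1.17, −0.67 and 1.74 in WT samples, with sums of 9.0 to 54.1 in KO and 8.52 to 42.2 in WT. The 11 macrophage markers tested ran the other way, at 4.36, 3.97, 4.67 and 3.48 in KO samples and 4.29, 4.14, 4.70 and 3.46 in WT samples. Samples numbered 4 thus had the highest epithelial and fibroblast and the lowest macrophage marker levels in both genotypes, and samples numbered 3 the reverse. All 7 epithelial and all 7 fibroblast markers were well above background on all 8 arrays, and their part in the levels of Epas1, Egln3, Car9 and Adm was not tested.

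Other members were highest in number 1. In 13 of 33 members both samples numbered 1 were the highest of the 8, against 9.02% of all genes, and in 0 were both the lowest (4.54% of all genes). In 0 were both samples numbered 2 the highest (1.95%). The 13 were Gpi1, Pfkfb3, Aldoa, Tpi1, Gapdh, Eno1, Pkm, Ldha, Slc16a3, Egln1, Ankrd37, Mif and Higd1a. They hold 2 of 7 upper-step genes, 5 of 8 lower-step enzymes, 2 of 3 genes of lactate and pyruvate fate, 1 of 4 oxygen sensing genes and 3 of 11 hypoxia-induced genes, and no difference between these role groups was tested. The excess was modest for most, with a median of 0.20 above the gene's mean over the lower-step enzymes and 0.18 over all members, against 0.044 over all genes. In Slc16a3 the order was the same in both genotypes, with number 1 highest, then 3, 2 and 4.

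Neutrophil markers were also highest in the samples numbered 1. The mean of the 5 markers tested was 2.34, 0.94, −0.36 and 0.41 in KO samples 1 to 4 and 2.38, 0.99, −0.20 and 0.70 in WT samples 1 to 4, and both samples numbered 1 were the highest in 5 of 5 markers. The summed signal ran from 7.08 to 51.6 in KO and from 7.76 to 54.7 in WT. The part of these markers in the levels of the 13 members was not tested. Markers of natural killer cells and T cells were above 0 in KO minus WT for 5 of 5 and 7 of 8 genes, as were 10139 of all 20870 genes. Their median differences were 0.91 and 0.51, with 0 calls. Well above background on all 8 arrays were 3 of 5 natural killer cell markers and 8 of 8 T cell markers. The part of both marker sets in the members' values was not tested either.

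**Figure D4:**
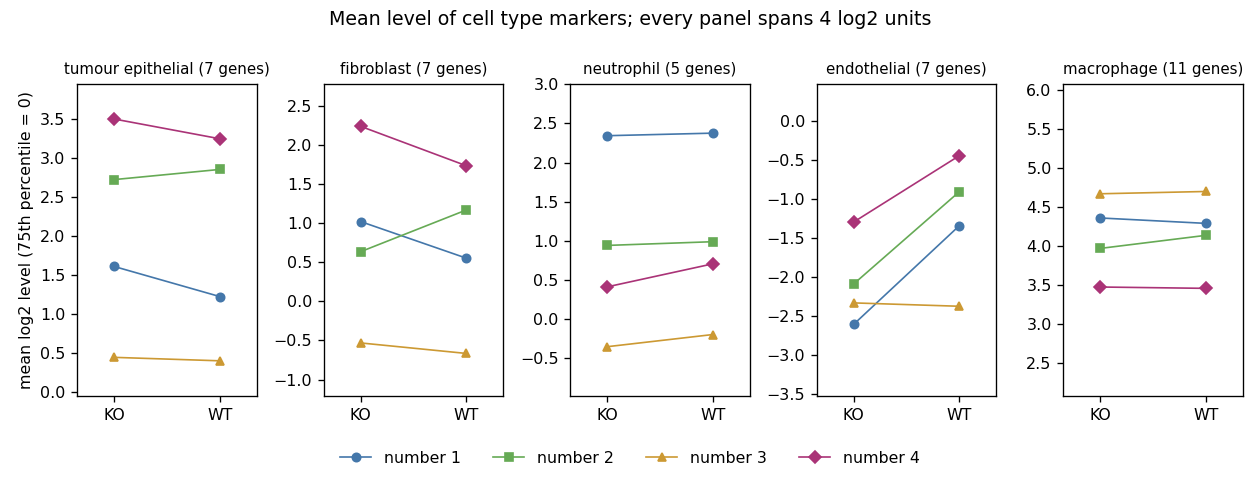
Mean log2 level of the markers of 5 cell types in KO (left) and WT (right) samples, with lines joining samples of the same number. Epithelial and fibroblast markers are highest in number 4 and lowest in number 3, macrophage markers the reverse, and neutrophil markers are highest in number 1; of the 5, endothelial markers show the widest gap between KO and WT.

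The wider pathway gave no call either. Of the further genes listed, 0 passed limma's test (0% of all genes). Only Hif3a, 1 of the 20 other oxygen sensing genes tested, had an unadjusted limma p under 0.05, which 3.33% of all genes had. Rpia, Vhl and Lox had no probe here. In the pentose phosphate branch, which makes NADPH from glucose, 6 of 6 tested genes were above 0, as were 10139 of all 20870 genes. Taldo1 at 0.24 and Rpe at 0.16 led, each higher in KO in 4 of 4 pairs (7.39% of all genes were). G6pdx, Pgd and Tkt, at 0.089, 0.038 and 0.033, were lower in KO in 2 of 4 pairs. Pgls, at 0.0017, was lower in 3 of 4. Among genes of pyruvate fate and transport, 9 of 14 were above 0, with the dehydrogenase subunits Dld at 0.30 and Pdha1 at 0.26. Of other glycolysis isoforms 7 of 12 were below 0, with Tigar, a bisphosphatase that slows glycolysis, at 0.87 (standard error 0.45) and Pfkfb2 at −0.26.

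Among other oxygen sensing genes 12 of 20 were below 0. Hif3a, a HIF subunit with isoforms that restrain the others, had low signal and measured −4.63, −5.31, −4.80 and −4.99 in KO samples and −4.07, −4.85, −4.19 and −4.17 in WT samples. The difference was −0.61 with a standard error of 0.24 (limma unadjusted p = 0.0350, limma adjusted p = 0.9999). KO was lower in 4 of 4 pairs (9.67% of all genes were) while the groups overlapped. Hif1an, the asparagine hydroxylase that blocks HIF activity, differed by 0.19. The carbonic anhydrase gene Car12, named after its values were seen, followed the same numbers as Car9, at 0.67, 2.63, −1.31 and 3.41 in KO samples and 1.07, 2.50, −1.19 and 3.02 in WT samples, and its groups overlapped.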

How the data were processed

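Per the labels' protocols, 250 ng of total RNA per sample was amplified and labelled with Cy3. Signals of the 1-colour Agilent arrays came from Feature Extraction, version 10.7.1.1 per the file headers and 10.5 per the submitters' processing notes. Intensity per spot is in the deposited scanner files, already background-corrected in the processed signal, with marks of 0 or 1 for spots above background, saturated (0 spots) or outlying. The authors' deposited value table holds intensity of unstated scale and normalization, and served as an alternative.

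Control spots and outliers were dropped, the log2 intensity from the deposited files was averaged over a probe's spots, and each array's 75th percentile over non-control spots subtracted. The brightest probe stood for its gene, tested if well above background on at least 4 of 8 arrays (20870 of 32665). The genotypes were tested by limma 3.58.1 (lmFit and eBayes, R 4.3.3), two-sided and Benjamini-Hochberg adjusted. The test was also run on simulated data, in which samples of one number shared nothing and the planted changes exceeded every member's difference. That run covered neither pairing nor differences of the members' size. Deviations from group means correlated at 0.30, 0.14, 0.70 and 0.51 over genes for numbers 1 to 4, all over the limit of 0.1. The numbers were therefore taken to pair the samples, from the data and not from the labels. Number 2 was the weakest case. Its correlation of 0.136 was below that of KO sample 4 with WT sample 2 (0.151) and of KO sample 2 with WT sample 4 (0.138). The replicate block changed no call.

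Members, gene lists, alternatives and naming rule were chosen with earlier results of these data known. By that rule every member's difference is given, with all samples for the 6 members of smallest p, the 4 of largest SD and 12 defining members. For each group of further pathway genes the 2 of smallest p are named. Probes were named through RefSeq accessions (25097 of 41174 matched), and protein sequences were not used here.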

Additional observations from a re-analysis of the deposited data

Results flagged for a closer look

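Within groups of 4 samples, 3 values stood apart, where chance flags about 1 in 20 groups and 68 groups were tested. Slc2a1 in WT sample 3, at 5.09, lay below the other WT samples, which measured 5.36 to 5.42. Bnip3 in WT sample 2, at 3.70, lay below the other WT samples, at 4.20 to 4.25, and the KO sample of the same number was likewise the lowest of its group, at 3.60. Atf3 in KO sample 1, at 5.51, lay above the other KO samples, at 4.86 to 4.96.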

How the results depend on the processing

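No member was called under any alternative run. Over all genes the count was 0 in each except without KO sample 1, where it was 1, so over the left-out samples it ran from 0 to 1. With the replicate block 0 genes and 0 members were called, and 25 of 33 members were again below 0, with a median of −0.078. The deposited table and quantile normalization gave 28 of 32 and 26 of 33 below 0, against 49.9% and 49.0% of all genes.

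Normexp background correction as planned gave 9 of 33 below 0 and a median of 0.051. Over all genes 61.5% were then below 0, and the median moved to −0.14. WT sample 1 had 18 spots with a local background over 60 units, up to 35223, and no other array had any. This raised that array's 75th percentile to 1036, against 658 with those backgrounds replaced by the array's median. That alternative, chosen after seeing the data, gave 28 of 33 below 0 and a median of −0.097, against 57.3% and −0.037 over all genes. Single differences under the alternatives were listed for some of the 33 members only. Among those the planned normexp fit turned the sign for Bnip3 (0.038), Pfkfb3 (0.049), Adm (0.10), Pgam1 (0.044), Slc2a1 (0.023), Pkm (0.062) and Egln3 (0.061). The count below 0 fell from 25 to 9, so further members turned that are not named here.

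The sign also turned elsewhere, Epas1, Hif1a and Car9 included. Ldha turned to −0.050 with the backgrounds replaced, −0.061 in the deposited table, −0.12 within slide 1, −0.040 with array weights and −0.0092 as the mean of its probes. Adm turned to 0.21 within slide 1 and 0.17 with array weights, Hif1a to −0.027 within slide 2, Egln3 to 0.18 within slide 2 and 0.023 with array weights, and Car9 to 0.016 with array weights. Over the left-out samples Bnip3 ran from −0.23 to 0.040, Epas1 from −0.80 to 0.16, Adm from −0.36 to 0.45, Ldha from −0.085 to 0.085, Egln3 from −0.50 to 0.32 and Car9 from −0.50 to 0.26. Each of these fits dropped a sample but kept the other of the same number. For genes that followed the number, this also left the numbers unbalanced between the genotypes. The count of members below 0 ran from 17 to 30 and the median from −0.15 to −0.0079. Atf3 differed by 0.42 on unscaled signal (exact permutation p = 0.0286), and from 0.097 to 0.31 over the left-out samples on scaled signal. The causes of these changes, beyond the high backgrounds on 1 array, were not tested.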
